A study of Homo sapiens with 8 samples.

Results

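Mitochondrial ribosomal protein genes are the nuclear genes whose symbol begins with MRPL or MRPS followed by a number. MRPL symbols stand for proteins of the large subunit and most MRPS symbols for proteins of the small subunit, while MRPS18A and MRPS30 belong to the large one and are counted there. They were taken from the deposited array values by this symbol alone, each probe being named through its transcript identifier. The symbol rule used no measured value. The deposited values had however been filtered by the authors on detection and on agreement between labellings, and members were chosen with earlier results of these data known. The deposited values held 100 probes for 76 of these genes, out of 16065 probes. RefSeq lists 77 such protein-coding genes, and the one without a probe here was MRPL42. Of the 76 genes, 55 had 1 probe, 18 had 2 probes and 3 had 3 probes.

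The cells were of the established line KM-H2, which derives from a Hodgkin lymphoma and has abundant miR-155. One population, EV, carried the empty retroviral vector pMSCV-PIG. The other, miR-155-sp, carried the same vector with a sponge insert, whose transcript offers binding sites that capture miR-155. Both populations were GFP-sorted pools after transduction, and the labels name no clone. RNA came from the whole lysate (total, T) and from an immunoprecipitation with an antibody against Argonaute 2 (Ago2-IP), the protein that miRNAs guide to their target mRNAs. This gave 4 RNA samples, 1 for each population and fraction. Each RNA was labelled once with Cy3 and once with Cy5, and each array held the T and IP of 1 population. The pair of labellings is technical, so each group is 1 sample and neither tests nor p-values are given. Values from both dye orientations (IP in Cy5 or IP in Cy3) show the technical spread instead. As the arrays of EV and miR-155-sp were different arrays, a difference between the populations and one between their arrays cannot be told apart.

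Mitochondrial ribosomes translate the few mRNAs of the mitochondrial genome, which encode core subunits of the respiratory chain and of ATP synthase. Their RNA comes from the mitochondrial genome, while all their proteins are encoded in the nucleus, made in the cytosol and imported. Many of these proteins belong to families shared with bacterial ribosomes, and others are found in mitochondria only.

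The sponge was directed at miR-155-5p, whose mature RNA (RefSeq, GRCh38.p14, chr21:25573983-25574006, plus strand) is shown because it is the miRNA that the sponge was built to capture. Capitals mark the seed, bases 2 to 8 from the 5′ end.

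hsa-miR-155-5p: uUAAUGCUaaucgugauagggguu

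Per channel, the detected share of gene spots ran from 38.8% to 61.9% and was lower in Cy5. The Hodgkin cell markers TNFRSF8, IRF4, FSCN1, CCL17, CD40 and MIR155HG were well above background in all 4 channels of total RNA. CD3E (1 of its probes) and EPCAM were so in none, ALB in 1, the other CD3E probe in 2 and CD14 in 3. The mitochondrial ribosomal protein probes gave strong signals: 96 of the 100 were well above background in all 8 channels, and every one was so in at least 1 labelling of each RNA. The median log2 signal in total RNA was 12.52 in EV and 12.56 in miR-155-sp, against 9.37 and 9.38 over all 17912 retained probes. Signals of different probes depend on the probe as well as on the transcript, so these values describe how well the probes could be read and not amounts of RNA. The strongest signals in EV total RNA came from MRPL34 (14.77), MRPS24 (14.71) and MRPS21 (14.70), and the weakest from probes of MRPL1 (6.92), MRPL30 (7.88) and MRPL49 (8.18).

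The first comparison asks which of these mRNAs were over- or under-represented in the Ago2-IP, expressed as the IP/T ratio. Most mitochondrial ribosomal protein mRNAs were mildly under-represented, as were most of all retained probes. A small number stood far above the others, and the picture was nearly the same in both populations. The median IP/T was 0.770 in EV and 0.773 in miR-155-sp (log2 -0.38 and -0.37), against 0.847 and 0.838 over all retained probes. The ratio was below 1 for 72 of 100 probes in EV, where the share among all retained probes was 60.7%, and for 74 in miR-155-sp, with 60.8% among all. In EV, 61 probes were below 1 and 21 above 1 in both dye orientations, where 51.6% and 32.6% of all retained probes were. The ratios ran from 0.312 to 6.10 in EV and from 0.313 to 6.86 in miR-155-sp. Across the 100 probes, which are not independent samples, log2 IP/T correlated at r = 0.976 between EV and miR-155-sp and at r = 0.891 between the dye orientations of EV. Over all retained probes these values were 0.957 and 0.894. The median depended on the orientation, in EV at log2 -0.47 for the Cy5-labelled IP and -0.21 for the Cy3-labelled IP. Over all retained probes the orientations gave -0.22 and -0.22, so with the Cy3-labelled IP alone the members hardly differed from all probes. The ratio is relative to all probes on the array and gives no absolute share of bound RNA.

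**Figure D1:**
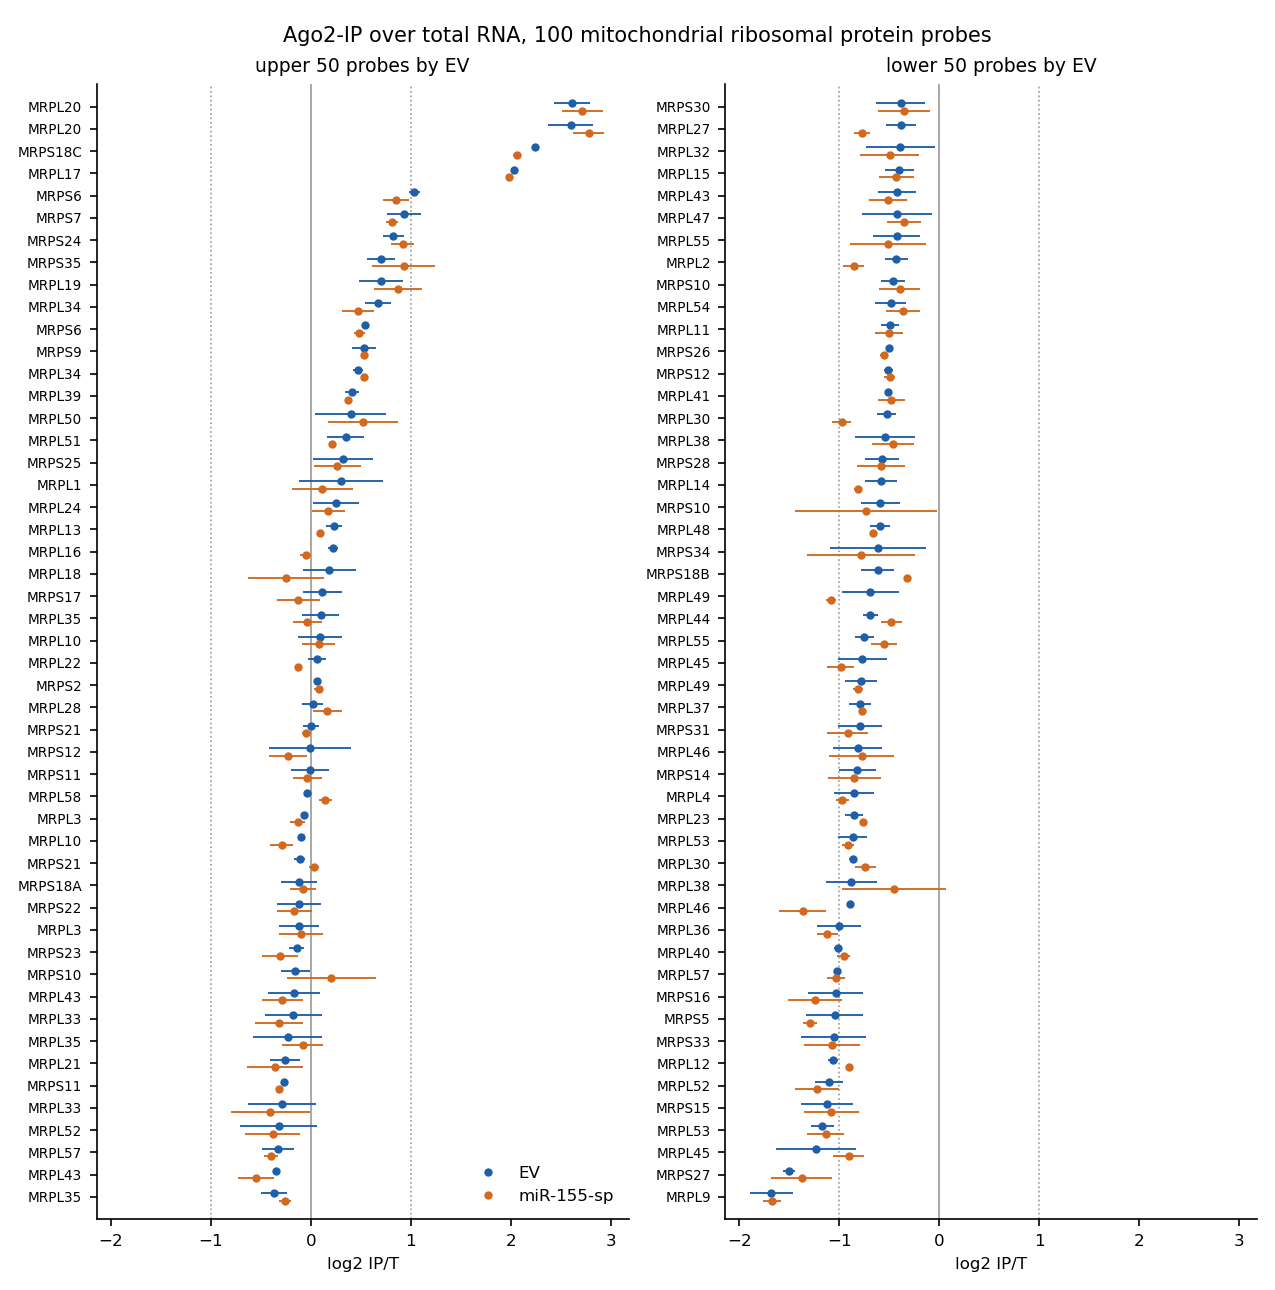
Log2 IP/T of the 100 mitochondrial ribosomal protein probes, sorted by the EV value from top left to bottom right, with EV in blue and miR-155-sp in orange. Points are means of both dye orientations, bars join the 2 orientations, the solid line marks IP/T of 1 and the dotted lines 0.5 and 2. MRPL20, MRPS18C and MRPL17 stand apart at ratios between 4.09 and 6.10 in EV, and the other probes form a continuous range down to MRPL9 at 0.312.

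An IP/T of 2 or more, the study's limit for Ago2-bound transcripts, was reached in EV by 5 of the 100 probes, for 4 genes, where 14.8% of all retained probes reached it. For probes detected in all 8 channels the share was 12.7%. In miR-155-sp 4 probes reached it, against 15.6% of all. Both shares were below those of all retained probes, among which weak probes more often reached the limit. In the strongest of 4 equal groups by EV total signal, 5 of 78 member probes reached it in EV. Of all probes in that group 7.39% did, so the members were near this share. The enriched members are described as single genes.

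MRPL20, the mitochondrial form of a bacterial protein that binds early in large subunit assembly, had the highest ratio, and its 2 probes gave nearly the same value. Probe A_23_P97473 had log2 signals of 13.47 (Cy3) and 13.67 (Cy5) in EV total, 16.10 and 16.26 in EV IP, 13.84 and 13.89 in miR-155-sp total, and 16.41 and 16.75 in miR-155-sp IP. Every IP value lay above every total value. The IP/T was 6.10 in EV (6.90 for the Cy5-labelled and 5.38 for the Cy3-labelled IP, the order kept below) and 6.57 in miR-155-sp (7.55 and 5.72). The other probe, A_24_P8768, had an IP/T of 6.06 in EV (5.18 and 7.09) and 6.86 in miR-155-sp (6.16 and 7.64). Of all retained probes, 566 had a higher EV ratio than the first MRPL20 probe and 573 a higher one than the second.

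MRPS18C is 1 of the human proteins related to a single bacterial small subunit protein. Its log2 signals were 13.09 and 12.98 in EV total, 15.21 and 15.33 in EV IP, 13.09 and 13.05 in miR-155-sp total, and 15.14 and 15.11 in miR-155-sp IP, for Cy3 and Cy5. The IP values were thus again apart from the total values. Its IP/T was 4.71 in EV (4.72 and 4.70) and 4.16 in miR-155-sp (4.06 and 4.27). RefSeq lists 6 pseudogenes of MRPS18C and 1 of MRPL20, and whether their transcripts bind the probes was not tested.

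MRPL17, which lies at the exit of the tunnel through which the new protein leaves, had log2 signals of 12.71 and 12.57 in EV total and 14.64 and 14.71 in EV IP. In miR-155-sp they were 12.68 and 12.70 in total and 14.69 and 14.65 in IP. Its IP/T values of 4.09 in EV (4.01 and 4.18) and 3.94 in miR-155-sp (3.92 and 3.97) were close in all 4 orientations, and RefSeq lists no pseudogene of it. MRPS6, a small subunit protein whose bacterial relative pairs with the relative of MRPS18C, was at the limit: probe A_23_P102890 had 2.05 in EV (1.97 and 2.13) and 1.80 in miR-155-sp (1.64 and 1.97), and probe A_24_P365571 had 1.46 and 1.40.

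Another 5 probes had an EV ratio between 1.5 and 2. These were MRPS7 (1.91) and MRPS24 (1.77), both of the small subunit head, the mitochondria-specific MRPS35 (1.63), MRPL19 (1.62) and a probe of MRPL34 (1.59). In miR-155-sp the same probes had 1.76, 1.89, 1.91, 1.83 and 1.38. Single orientations put MRPS7 at 2.15 in EV, and MRPS35, MRPL19 and MRPS24 at 2.37, 2.16 and 2.05 in miR-155-sp, so their side of the limit was not settled at this precision.

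At the other end, 13 of 100 probes in EV had an IP/T of at most 0.5, where the share among all retained probes was 12.9%, and 11.9% for probes detected in all 8 channels. In miR-155-sp there were 12 probes, against 14.1% of all. The member share was thus near that of all probes. Of these, 10 probes were at or below 0.5 in both populations. MRPL12, MRPL40 and a probe of MRPL45 were so in EV alone, with 0.534, 0.516 and 0.533 in miR-155-sp. Probes of MRPL46 and MRPL49 were so in miR-155-sp alone, with 0.388 and 0.472.

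MRPL9, a large subunit protein of a bacterial family, was lowest. Its log2 signals were 13.24 and 13.18 in EV total, 11.71 and 11.34 in EV IP, 13.30 and 13.08 in miR-155-sp total, and 11.49 and 11.53 in miR-155-sp IP. All total values lay above all IP values. Its IP/T was 0.312 in EV (0.268 and 0.362) and 0.313 in miR-155-sp (0.294 and 0.334).

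MRPS27, an RNA-binding mitochondria-specific protein of the small subunit, followed with an IP/T of 0.354 in EV (0.339 and 0.369) and 0.385 in miR-155-sp (0.474 and 0.312). A probe of MRPL45, which anchors the ribosome to the inner membrane, had 0.424 in EV but 0.321 and 0.559 in the single orientations. The other MRPL45 probe had 0.586 in EV. Next came MRPL53 (0.445) and MRPS15 (0.459), then MRPL52 (0.465), MRPL12 (0.479), MRPS33 (0.481), MRPS5 (0.484), MRPS16 (0.488), MRPL57 (0.493), MRPL40 (0.496) and MRPL36 (0.4995). MRPL12 forms the flexible stalk that recruits translation factors, and MRPL53 sits at its base.

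Of the 13 probes, 4 were at or below 0.5 in both orientations of EV, namely MRPL9, MRPS27, MRPL53 and MRPL12. Only MRPL9 and MRPS27 were so in both orientations of both populations. These low calls depended on the processing. With normexp on the median signals followed by loess and Aquantile in place of quantile normalization of the processed signals, 2 probes in EV and 1 in miR-155-sp were at or below 0.5, and the share among all retained probes fell too, to 1.65% in EV. With normexp and quantile normalization 5 probes in EV were. Which of these choices moved the calls was not tested. Under the first of these settings MRPL20 had log2 2.64 and 2.48, MRPS18C 2.23 and MRPL17 2.02.

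By position in the ribosome, the 68 probes of the 50 large subunit genes had a median log2 IP/T of -0.39 in EV, and the 32 probes of the 26 small subunit genes -0.15. In miR-155-sp the medians were -0.42 and -0.27. Proteins of bacterial families (63 probes, 48 genes) had a median of -0.16 in EV and -0.25 in miR-155-sp. Mitochondria-specific proteins (37 probes, 28 genes) had -0.59 and -0.55. The mitochondria-specific median was the lower one under all 14 alternative settings, by between 0.30 and 0.51 on the log2 scale in EV. All 5 probes with an IP/T of 2 or more in EV belonged to bacterial families, the larger list. They made up 7.94% of its 63 probes, where 14.8% of all retained probes reached this limit. A ratio at or below 0.5 was found in EV for 6 of the 63 bacterial-family probes (9.52%). It was found for 7 of the 37 mitochondria-specific probes (18.9%) and for 12.9% of all retained probes. The highest mitochondria-specific ratio was that of MRPS35, at log2 0.70. The lists were chosen with earlier results of these data known, and the difference was noticed in the values, so it is a description.

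Within the large subunit, the probes of the stalk and its base (7 probes of 5 genes) ran from MRPL53 at 0.445 to a probe of MRPL10 at 1.06, with a median log2 IP/T of -0.49 in EV. The rim of the exit tunnel (10 probes, 9 genes) held both a probe of MRPL45 at 0.424 and MRPL17 at 4.09, with a median of -0.41. In the central protuberance, where the large subunit meets the small one and binds a structural RNA, the median was -0.41. Of its 16 probes, for 10 genes, 14 were below 1 in EV, and 11 were so in both orientations. Among all retained probes 60.7% and 51.6% were, and among all members 72 and 61 of 100. The probes above 1 there were MRPL18 (1.14) and 1 of the 3 MRPL35 probes (1.07). The medians of these regions were thus all below an IP/T of 1, as was that of all retained probes (log2 -0.24). At the tunnel exit MRPL17 was followed by MRPL39 at 1.33.

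Of the 21 genes with more than 1 probe, none had probes that differed 2-fold or more in EV IP/T. The median difference was 0.30 on the log2 scale and the largest 0.78, for MRPL52 (0.465 and 0.801). MRPL57 (0.493 and 0.795), which has 8 pseudogenes in RefSeq, came next, then MRPS12 (0.703 and 0.995) and MRPS6. Both probes lay at or below 0.5 for none of these genes, and for 2 genes, MRPL10 and MRPL35, the probes lay on both sides of 1. The probes of MRPL20 differed by 0.01 and those of MRPL3 by 0.06.

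The signal of the members has to be considered beside their ratios, since over all retained probes weak ones more often had a high IP/T. Among the members the relation ran the other way. The Spearman correlation of EV total signal with EV IP/T was 0.24 over the 100 member probes and -0.19 over all retained probes. When all retained probes were split into 4 equal groups by EV total signal, 24.9% of the weakest group and 7.39% of the strongest had an IP/T of 2 or more. Of the member probes, 78 lay in the strongest group, and 5 of these 78 had an IP/T of 2 or more and 11 one of 0.5 or less, where 14.96% of all probes in this group were at 0.5 or less. The median log2 IP/T of the members there was -0.33, and that of all probes of this group -0.34, so at like signal the members did not lie lower.

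**Figure D2:**
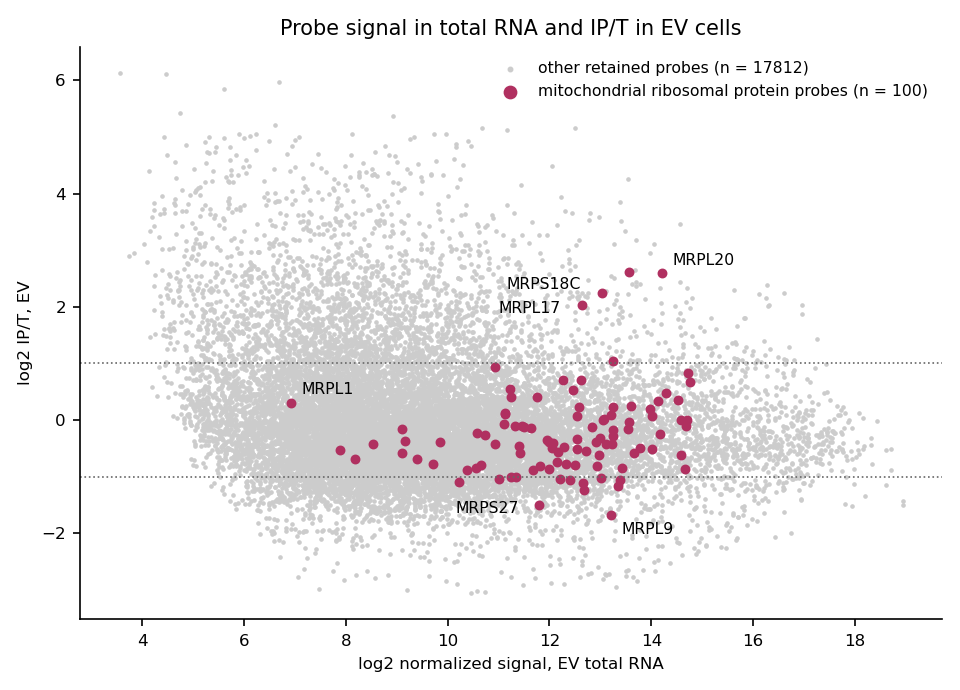
Log2 IP/T in EV against the log2 normalized signal in EV total RNA for the 17912 retained probes, with mitochondrial ribosomal protein probes in red and other probes in grey. The dotted lines mark IP/T of 0.5 and 2. The members lie mostly at strong signals, with a median of 12.52, and MRPL20, MRPS18C and MRPL17 lie above the bulk of probes of like signal.

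The second comparison asks whether the sponge changed these mRNAs, in total RNA or in their share in the Ago2-IP. In total RNA the mitochondrial ribosomal protein mRNAs differed little between the populations: the median log2 change (miR-155-sp minus EV) was 0.02, the range -0.37 to 0.47, and no probe reached 1.5-fold in the mean. Among all retained probes 3.6% reached it, and of the probes detected in all 8 channels 0.968%. In a bulk sample, fewer cells with a transcript and less transcript per cell cannot be told apart. In the IP/T ratio the median change was -0.04 (log2), the range -0.48 to 0.43, and again no probe reached 1.5-fold, with shares of 7.54% among all and 2.28% among those above background in all channels. Of the member probes, 36 were lower and 27 higher in miR-155-sp in both orientations, where 30.3% and 30.6% of all retained probes were. With channels scaled to a common median instead, the median change of the members was 0.02, so the sign of this small shift depended on the scaling. These changes are relative to the other probes on the arrays. The spike-in controls, described at the end, changed by a median of log2 1.57 in IP/T before quantile normalization.

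The changes of single members repeated poorly between orientations. Across the 100 probes the changes of log2 IP/T in both orientations correlated at r = 0.09 (0.24 over the 96 probes above background in all channels), while the ratios themselves did so at r = 0.891. The changes also correlated weakly over all retained probes, at r = 0.27, and at 0.33 over those above background in all channels. In single orientations 6 probes (IP in Cy5) and 2 probes (IP in Cy3) changed 1.5-fold or more, against 13.2% and 12.8% of all retained probes, and none did so in both. The SD between the orientations of a change had a median of 0.11 on the log2 scale, each SD resting on 2 values. The median absolute change of log2 IP/T was 0.12 for the members and 0.17 over all retained probes.

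**Figure D3:**
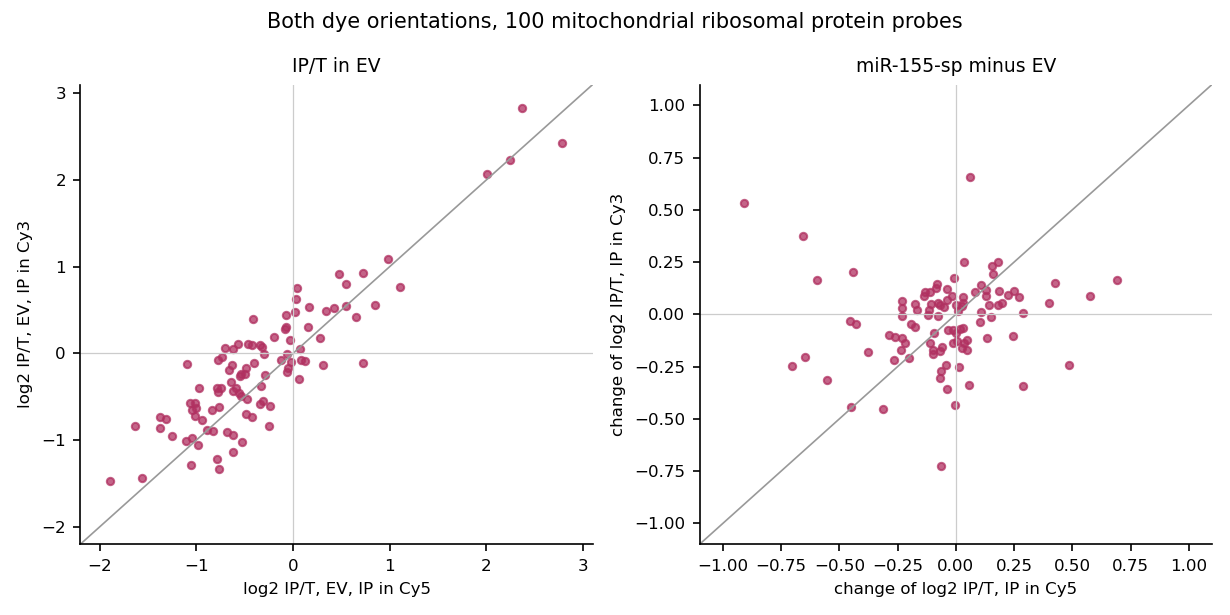
Values of the 100 mitochondrial ribosomal protein probes in both dye orientations, for log2 IP/T in EV on the left and for its change, miR-155-sp minus EV, on the right. Grey diagonals mark equal values. The ratios follow the diagonal (r = 0.891), and the changes scatter around 0 without following it (r = 0.09).

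The largest falls of IP/T among probes above background in all channels were those of a probe of MRPL46 (log2 -0.48, single orientations -0.71 and -0.25), MRPL18 (-0.43, with -0.55 and -0.32), a probe of MRPL49 (-0.39, with -0.06 and -0.72), MRPL27 (-0.38) and MRPL16 (-0.28). The other MRPL46 probe, A_23_P37584, changed by 0.04. MRPL18 and MRPL27 are parts of the central protuberance, and MRPL16 is a bacterial-family protein near the catalytic centre. MRPL18 had log2 signals of 14.12 and 13.83 in EV total, 14.28 and 14.05 in EV IP, 14.17 and 13.91 in miR-155-sp total, and 14.04 and 13.54 in miR-155-sp IP. Its total values overlapped between populations, and both IP values were lower in miR-155-sp than those of the same dye in EV.

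The largest rises were those of a probe of MRPL38 (0.43, with 0.69 and 0.16), a probe of MRPS10 (0.36, with 0.06 and 0.66), a probe of MRPL45 (0.33, with 0.58 and 0.09), MRPS18B (0.29) and MRPS35 (0.23). The other MRPL45 probe, A_32_P9575, went the other way, by -0.22. The other MRPL38 probe changed by 0.08, and the other MRPS10 probes by -0.14 and 0.07. For MRPL38, the orientations of miR-155-sp themselves gave an IP/T of 1.05 and 0.509, a spread larger than the change. The probe with the largest rise of total RNA was again the weak MRPL49 probe A_24_P232500 (log2 0.47), while the other MRPL49 probe changed by -0.03. It was followed by MRPS12, a protein of the decoding site (0.32 for 1 of its 2 probes and 0.12 for the other), and by a probe of MRPL35 (0.31). Among probes above background in all channels, the largest falls of total RNA were -0.29 (a probe of MRPS10), -0.20 (MRPL50) and -0.18 (MRPS35), and the weak MRPL1 probe, above background in 6 of 8 channels, changed by -0.37.

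Genes that act with the mitochondrial ribosome were described in the same way. The 5 mitochondrial ribosomal proteins with another symbol ran from GADD45GIP1 (0.605) through AURKAIP1 (0.619), PTCD3 (0.755) and CHCHD1 (0.861) to DAP3 (1.25) in EV. Assembly factors (29 probes, 22 genes) had a median log2 IP/T of -0.35 in EV, with 2 probes at 2 or more, MPV17L2 (2.19) and 1 of MTERF3 (2.21), and 4 at 0.5 or less. Translation factors (17 probes, 12 genes) had a median of -0.39, with the initiation factor MTIF3 alone past 2 (3.01). The aminoacyl-tRNA synthetases of mitochondria (18 probes, 15 genes) had a median of -0.64, with both PARS2 probes (2.31 and 2.99) and RARS2 (2.25) past 2. Transcription and RNA factors (19 probes, 14 genes) had a median of -0.26, and SLIRP, which keeps mitochondrial mRNAs stable, had an IP/T of 4.43. In the sponge comparison, 1 probe each of the translation factors (GUF1, log2 change of IP/T 0.77) and the RNA factors (PRORP, 0.72) passed 1.5-fold. Neither was above background in all channels. Of the synthetases, 1 probe passed it as well, with a fall of log2 -0.85. Among all retained probes 7.54% changed 1.5-fold or more. Cytosolic ribosomal proteins (190 probes, 84 genes, some of them sharing sequence with many pseudogenes) had a median log2 IP/T of -0.39 in EV and -0.40 in miR-155-sp. In EV 12 of their probes (6.32%) were at 2 or more and 22 (11.6%) at 0.5 or less. The shares of all retained probes were 14.8% and 12.9%. They were 6.90% and 13.8% for assembly factors and 5.88% and 11.8% for translation factors. Synthetases had 16.7% and 11.1%, and transcription and RNA factors 5.26% and 5.26%.

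**Figure D4:**
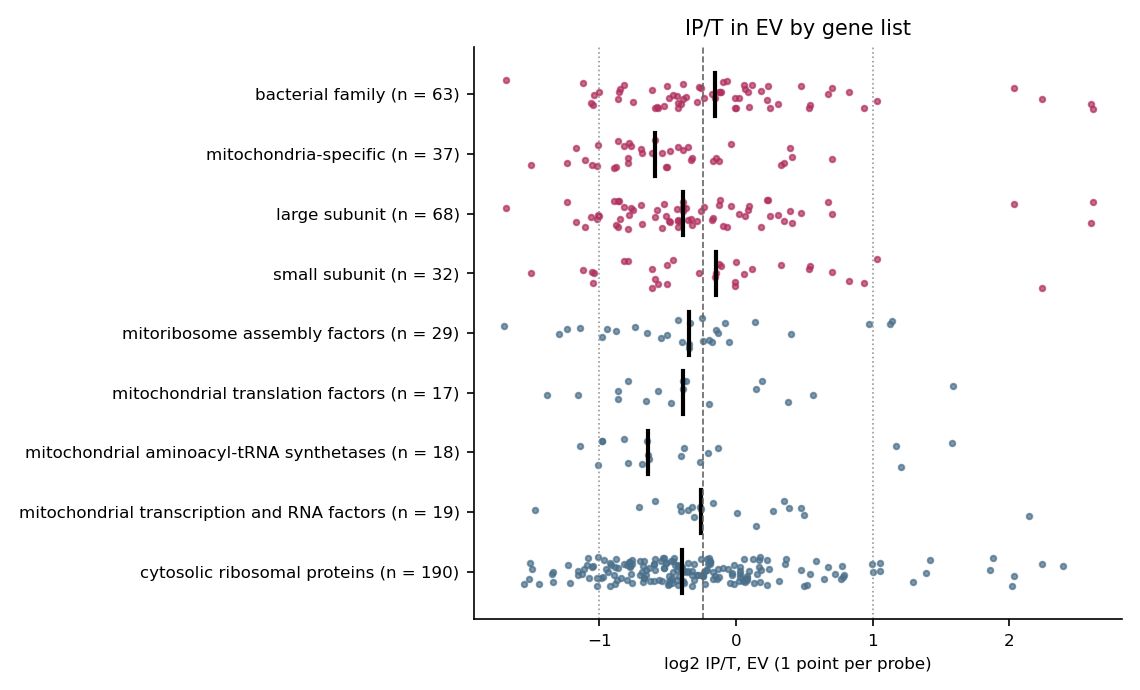
Log2 IP/T in EV for each probe of the mitochondrial ribosomal protein groups (red) and of related gene lists (blue). Black bars are medians, the dashed line is the median of all retained probes (-0.24), and dotted lines mark IP/T of 0.5 and 2. Mitochondria-specific proteins have a lower median (-0.59) than bacterial-family proteins (-0.16), and each list holds probes on both sides of 1.

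As a feature that the choice by symbol did not use, the promoters of the members were read. RefSeq promoters (GRCh38.p14, 250 bases before to 50 after the start site, the first listed start site of a gene) were available for 68 of the 76 genes. The letters CCGGAAG, the core bound by ETS family factors, were present on either strand in 29 of the 68 (42.6%), in 14.2% of 15842 protein-coding promoters and in 33.8% of 68 promoters of cytosolic ribosomal proteins. AAGATGGCG, a YY1-type motif, was present in 17.6% of member promoters, 2.74% of all and 8.82% of those of cytosolic ribosomal proteins. GCGCATGCG, an NRF1-type motif, was present in 4.41%, 2.76% and 1.47%, in the same order. CCAAT was present in 29.4%, 36.4% and 32.4%, and TATAAA in 2.94%, 9.63% and 10.3%. None of these letter strings contains another. Promoter stretches around CCGGAAG, all upstream of the start site, are shown for MRPL20 and MRPS18C as genes with a high and for MRPL53 and MRPL40 as genes with a low IP/T, with the motif on either strand in capitals and each read in the direction of the gene. They lie at chr1:1407304-1407363 (minus strand), chr4:83455810-83455869 (plus), chr2:74472719-74472778 (minus) and chr22:19432508-19432544 (plus) of GRCh38.p14.

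MRPL20: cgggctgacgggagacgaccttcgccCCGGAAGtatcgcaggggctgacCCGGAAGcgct

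MRPS18C: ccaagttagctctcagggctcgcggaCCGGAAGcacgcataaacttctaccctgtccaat

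MRPL53: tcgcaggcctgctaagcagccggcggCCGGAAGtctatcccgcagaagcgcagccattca

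MRPL40: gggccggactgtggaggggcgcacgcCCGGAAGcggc

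The motif was found in 2 of the 4 member genes with an IP/T of 2 or more and in 5 of the 13 with one of 0.5 or less. Probes of genes with it (42 probes, 29 genes) had a median log2 IP/T of -0.37 in EV, and those of genes without it (47 probes, 39 genes) -0.39. A match of letters is not a binding site, and the arrays did not measure promoters.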

How the data were processed

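RNA of EV and miR-155-sp KM-H2 cells, total and from the Ago2-IP, was measured on 4 dye-swapped Agilent arrays. The deposited scanner intensity values had been made by the authors with Feature Extraction, version 10.7.3.1 per the file headers and 10.5.1.1 per the labels' processing notes, including background subtraction and dye normalization. The authors also deposited log2 values after quantile normalization and filtering. These differed from the values computed here by at most 0.03 for the member probes.

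Following the study's methods, log2 processed signals without control and outlier spots were averaged per probe and quantile-normalized over 8 channels. Probes were retained if well above background in at least 4 channels and if, for each sample, Cy3 and Cy5 differed by less than 2-fold. The mean of both labellings was used, and log2 IP/T is IP minus total. Quantile normalization removes any overall difference between fractions, and signals near background distort ratios.

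Probes were named through RefSeq (GRCh38.p14), which matched 23953 of 41000 probes. Another 3 array probes of these genes outside the deposited values were not used in the main results. Members thus had to be among the 16065 deposited probes, while the shares of all probes are over the 17912 retained here. A probe of MRPL2 outside the deposited values was retained and counts among the latter. Members and lists were chosen with earlier results of these data known. The member probes named were the 5 highest and lowest in EV IP/T, all past 2-fold in IP/T, the 5 largest changes of IP/T and 3 of total RNA in each direction, the 3 strongest and weakest signals, and any of a gene whose probes differed 2-fold or that changed 1.5-fold in both orientations. Other names were chosen after their values were seen.

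With 1 RNA sample per group, no test, SD over samples or interval was computed, and the number of arrays limits the precision. Alternatives were a common median, normexp (offset 50) on median signals followed by loess with Aquantile or by quantile normalization, the deposited values, stricter or no filters, arithmetic means, single labellings, single orientations and means per gene. The ratio code was tested on simulated data. Python 3.11.15 with pandas 2.3.3, and limma 3.58.1 in R 4.3.3, were used.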

Additional observations from a re-analysis of the deposited data

Results flagged for a closer look

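For MRPL58, a large subunit protein that can release stalled peptides, the IP/T was below 1 in both dye orientations of EV (0.958 and 0.996) and above 1 in both of miR-155-sp (1.16 and 1.06), a change of 0.18 on the log2 scale. For MRPL16 the ratios were above 1 in EV (1.21 and 1.13) and below 1 in miR-155-sp (0.931 and 0.998), a change of -0.28. These differences between populations were not tested, since each group is 1 RNA sample, and the ratios of 0.996 and 0.998 lie next to 1.

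The spike-in control spots were outside all comparisons. Their log2 IP/T, before quantile normalization, was higher in miR-155-sp than in EV by a median of 1.57 over 10 spike-ins (range 1.22 to 1.68), in both orientations for all 10. Before quantile normalization the median change of log2 IP/T over the 100 member probes was -0.03. The changes between populations given above are relative to the other probes on the arrays and not to the spike-ins. The cause of the spike-in difference was not tested.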

How the results depend on the processing

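Among the results over all members, the medians of log2 IP/T moved by more than the typical spread between orientations under normexp with loess and Aquantile alone, to -0.13 in EV and -0.16 in miR-155-sp. The same setting left 2 probes in EV and 1 in miR-155-sp at an IP/T of 0.5 or less, and normexp with quantile normalization left 5 in EV. With IP in Cy5 alone, 21 probes were at 0.5 or less in miR-155-sp. Averaging the probes of a gene left 3 genes at 2 or more in EV, which follows from MRPL20 counting once and the MRPS6 probes being averaged. With each labelling alone, the probes at 0.5 or less in EV ranged from 8 to 14, and the median change of log2 IP/T from -0.06 to -0.01. None of the other medians (of IP/T in each population and of the changes of IP/T, total and IP RNA) and none of the other counts at 2 or more or 0.5 or less moved by more than the spread or 1.5 times under the 14 alternatives. The number of probes with a 1.5-fold change of IP/T was 0 in the mean, 6 with IP in Cy5 alone and 2 with IP in Cy3 alone, and the median change of log2 IP/T turned positive, to 0.02, with a common median. For single named probes, the EV ratio stayed within its own spread between orientations in 403 of 448 comparisons and its change in 374 of 448, and no called ratio changed sign. The cause of these shifts was not tested. No paired analysis was possible because each group holds 1 RNA sample and no result comes from a test. One RNA sample per group and signals near background for 4 member probes limit what can be read from the changes.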
